A study of Mus musculus with 12 samples.

Results

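A set of 10 genes was followed here as a readout of WNT signaling in mouse intestinal tumor organoids, namely Axin2, Nkd1, Notum, Sp5, Tcf7, Lef1, Rnf43, Znrf3, Ephb2 and Ephb3. They were chosen by name as feedback and target genes of the pathway, and all 10 were found among the 24906 genes in each of the 2 deposited expression tables. When WNT ligands bind Frizzled receptors, β-catenin escapes its destruction complex, enters the nucleus and switches on target genes together with TCF/LEF factors. Many of those targets feed back on the pathway at the receptor, at the destruction complex or at the promoter, and in the intestine the pathway maintains the crypt, where stem and Paneth cells reside. SMAD4, which carries TGFβ and BMP signals to the nucleus, is known to oppose WNT signaling in the intestinal epithelium.

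The 12 RNA-Seq libraries came from small intestinal tumor organoids with the labelled genotype Smad4KO;BRAFV600E/+;pINDUCER-SMAD4. The tumors arose in Villin-CreERT2 mice, in which tamoxifen starts recombination in the intestinal epithelium, and the labels give no age for the animals. Organoids were grown for 48 h either inside BME, a gel of basement membrane proteins, or directly on plastic, in medium with or without 4 µg/mL doxycycline (dox), which drives SMAD4 from the pINDUCER construct. The comparison asks how SMAD4 re-expression relates to the transcriptome in each growth environment. Lines 682, 700 and 889 were grown in BME and lines 560, 700 and 889 on plastic, with 1 dox and 1 untreated library per line, so that only lines 700 and 889 were seen in both environments. All groups shared the Smad4KO and BRAF alleles and received R-spondin, EGF and Noggin with the medium. Per the study, WNT-activating mutations are a general feature of tumors in this model, and which one each line carried is not given in the sources used here.

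The dox library of line 682 is labelled as a mock treatment. Its title reads as dox and its genotype label as pINDUCER-SMAD4. The study's methods use the word mock for a plasmid given in place of pINDUCER-SMAD4 at transduction, and whether this library came from such cells is not stated. The study counted it among 4 vehicle libraries against 2 dox libraries in BME. It was kept among the controls of the group test, and its own values stand beside those of each member. The induced gene itself, Smad4, was at 17.2 and 27.3 FPKM (fragments scaled by transcript length and by library size) in the BME dox libraries of lines 700 and 889 and at 6.53 and 6.23 FPKM in their untreated partners. In line 682 Smad4 was at 10.3 FPKM with mock dox and at 8.88 FPKM untreated, so that this library sat with the controls. On plastic Smad4 was at 73.6, 18.1 and 48.9 FPKM with dox in lines 560, 700 and 889 against 1.54, 2.99 and 4.76 FPKM untreated. Its dox libraries lay wholly above the controls in both environments, as they did for 6.33% of all genes in BME and 7.87% on plastic.

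Absolute depth is unknown from FPKM alone. The step between low values put the deepest library at 1.23 times the shallowest in BME and at 1.32 times on plastic, and 15723 to 16805 genes were above 0 per library. Epithelial markers were high in every library, with a lowest Epcam level of 120 FPKM, although the caudal factor Cdx1 was listed at or near 0 in most. Summed over their marker lists, stroma reached at most 5.79 FPKM, leukocytes 1.29 FPKM and endothelium 0.671 FPKM in any library. Those lists held 7, 5 and 3 genes, and the pan-leukocyte gene Ptprc was at most 0.0958 FPKM.

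Levels of most of the 10 genes differed more between organoid lines than with dox. In each environment 9 of 10 had most of their spread between lines. In BME the median member had 84.8% of its sum of squares over the 6 libraries between lines, on the log2(FPKM + 1) scale, against 73.7% for the median of all 12996 genes tested. On plastic the values were 82.6% against 44.5% for the median of 12333 genes. Across members the share ran from 20.0% for Ephb3 to 97.1% for Nkd1 in BME, and from 26.6% for Znrf3 to 99.1% for Lef1 on plastic. These shares are descriptions without a test, since each line contributed 2 libraries per environment.

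**Figure D1:**
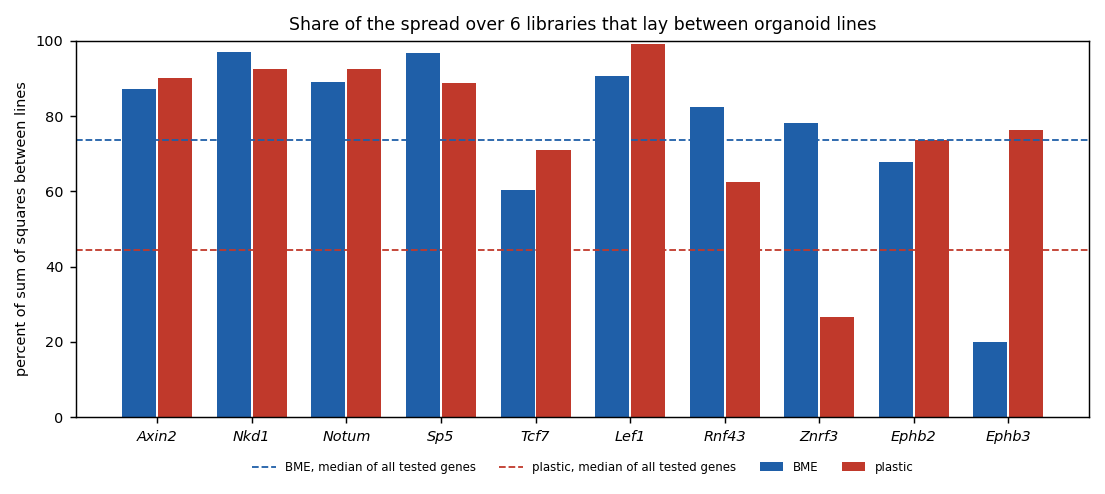
Bars give, for each gene, the percent of its sum of squares of log2(FPKM + 1) over 6 libraries that lay between organoid lines, in BME (blue) and on plastic (red), and dashed lines give the median of all tested genes, 73.7% in BME and 44.5% on plastic. Nkd1 and Lef1 stood near the top in both environments, whereas Ephb3 in BME (20.0%) and Znrf3 on plastic (26.6%) lay far below the medians.

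The first role is that of the intracellular brakes. Axin2, on chromosome 11 from 108781663 to 108812097 (plus strand, NCBIM37, the build also called mm9), encodes a scaffold of the β-catenin destruction complex and is the most widely used WNT reporter gene. In BME Axin2 was at 28.5 FPKM without dox and 20.1 FPKM with it in line 700, and at 67.9 and 57.2 FPKM in line 889. In line 682 it was at 43.9 FPKM untreated and 31.0 FPKM with mock dox. Lines ranked 889, 682, 700 whether or not dox was given, and each treated library lay below its partner, the mock library as far below (-0.49 on the log2(FPKM + 1) scale) as the dox library of line 700 (-0.48). On plastic Axin2 was at 48.5 and 53.9 FPKM in line 560, at 10.7 and 3.63 FPKM in line 700 and at 27.0 and 25.5 FPKM in line 889, untreated first. Only line 700 moved by more than 1 log2 unit there (-1.34), and dox and untreated libraries overlapped in both environments.

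Nkd1 (chromosome 8, 91045243 to 91118786, plus strand), which binds Dishevelled and blocks its signal, spread further between lines than Axin2. In BME it was at 3.17 FPKM without dox and 1.68 FPKM with it in line 700, at 28.4 and 24.2 FPKM in line 889, and at 9.79 FPKM untreated and 7.75 FPKM with mock dox in line 682. Treated libraries were again lower in all 3 pairs while line 889 stayed several times above line 700. On plastic Nkd1 was at 35.5 FPKM without dox and 14.0 FPKM with it in line 560, at 0.123 and 0.231 FPKM in line 700, and at 1.05 and 3.76 FPKM in line 889. The direction on plastic thus differed between lines, lower with dox in line 560 and higher in line 889, with line 700 close to 0 in both libraries.

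Notum and Sp5 act outside the cell and at the promoter. Notum (chromosome 11, 120515102 to 120522489, minus strand) encodes a secreted enzyme that removes the lipid from WNT ligands. In BME it was at 4.28 FPKM without dox and 6.71 FPKM with it in line 700, at 10.7 and 12.9 FPKM in line 889, and at 4.77 and 5.07 FPKM in line 682 with mock dox. On plastic it was at 17.6 and 18.0 FPKM in line 560, at 0.0264 and 0.183 FPKM in line 700 and at 0.668 and 4.30 FPKM in line 889. Notum was the member that lay higher with dox in all 5 dox pairs, by 0.033 to 1.67 on the log2(FPKM + 1) scale, and its groups overlapped in both environments because the lines differed by more.

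Sp5 (chromosome 2, 70312980 to 70315786, plus strand) encodes a zinc finger factor that represses WNT target genes. In BME it was at 0.808 FPKM without dox and 0.226 FPKM with it in line 700, at 25.3 and 16.0 FPKM in line 889, and at 13.2 FPKM untreated and 8.24 FPKM with mock dox in line 682. From the FPKM steps the values in line 700 stood for 24 and 6 whole reads, and those in line 889, which did not come out whole, for about 828 and 511. The dox libraries were lower by 0.56 and 0.63 on the log2(FPKM + 1) scale and the mock library by 0.62. As ratios of untreated to treated FPKM these were 3.57 in line 700, 1.58 in line 889 and 1.60 in the mock pair, so the mock pair matched line 889 but not line 700, where reads were few. On plastic Sp5 was at 27.5 and 16.5 FPKM in line 560, at 0.126 and 0.176 FPKM in line 700 (5 and 6 reads) and at 21.6 and 4.22 FPKM in line 889 (about 912 and 135 reads). On the log2(FPKM + 1) scale the -2.11 in line 889 was the largest difference of any member in any pair, and line 700 carried almost no Sp5 RNA in either environment.

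Sp5 is shown with its promoter because, among the members that could be searched, it was the 1 with a TCF/LEF motif close to its start. Promoters from the RefSeq tables (GRCm38.p6, 250 bases before each start) were found for 8 of the 10 members, with 13 start sites, and were searched on both strands for CTTTGAT or CTTTGTT, 7-letter forms of the TCF/LEF motif that do not overlap each other. Notum and Znrf3 had no promoter to search. Of all 32841 promoters, 8.06% held either form, and of the 13 member start sites 1 did, that of Sp5, which is near that share. The window is chr2:70474673-70474922 on the plus strand, printed 5′ to 3′ with both matches in capitals.
Sp5: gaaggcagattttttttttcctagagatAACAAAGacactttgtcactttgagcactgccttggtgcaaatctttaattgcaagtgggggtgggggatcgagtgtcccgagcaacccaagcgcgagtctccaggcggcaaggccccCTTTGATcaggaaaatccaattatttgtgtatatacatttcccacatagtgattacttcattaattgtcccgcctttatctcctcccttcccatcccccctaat
The match nearer the start is CTTTGAT at 104 to 98 bases before it, and the farther one is CTTTGTT on the minus strand at 222 to 216 bases before it. The SMAD palindrome GTCTAGAC was in 0 of the 13 member windows and in 0.167% of all promoters. A match describes letters in this window and not a bound site, and members without a match may hold one elsewhere.

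**Figure D2:**
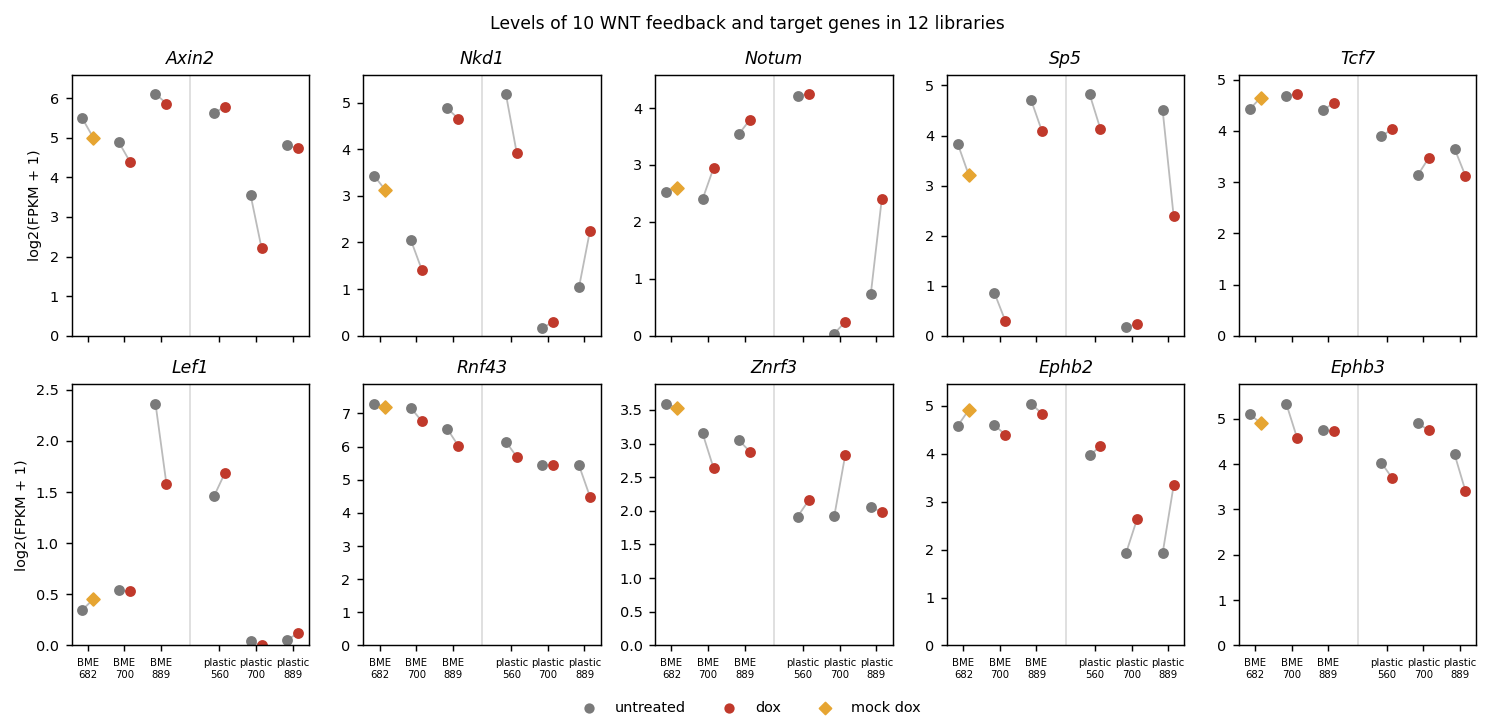
Each panel plots log2(FPKM + 1) of 1 gene in the 12 libraries, by environment and organoid line, with untreated libraries in grey, dox libraries in red and the mock dox library as a yellow diamond, and a line joining libraries of 1 organoid line. Nkd1, Notum, Sp5 and Lef1 lay near 0 in line 700 on plastic and well above it in line 560, and most joining lines were short beside the distance between organoid lines.

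Tcf7 and Lef1 encode the DNA-binding partners of β-catenin and are themselves WNT targets. Tcf7 (chromosome 11, 52065873 to 52096681, minus strand) was the steadiest member in BME, at 20.2 to 25.4 FPKM in the 6 libraries with a median of 23.3 FPKM. On plastic it was at 7.70 to 15.5 FPKM with a median of 10.9 FPKM. Its BME dox libraries lay higher than their partners by 0.036 and 0.14 on the log2(FPKM + 1) scale, and the first of these turned to -0.036 when all libraries were scaled to an equal FPKM sum. Lef1 (chromosome 3, 130813389 to 130927274, plus strand) was the lowest member, at 0.272 to 0.455 FPKM in lines 682 and 700 in BME. In line 889 Lef1 was at 4.16 FPKM untreated and 1.99 FPKM with dox. On plastic it was at 1.75 and 2.22 FPKM in line 560 and at most 0.0846 FPKM in lines 700 and 889, and it was listed at 0 in the dox library of line 700. Lef1 therefore exceeded 1 FPKM in 1 line in each environment.

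Rnf43 and Znrf3 encode paralogous ubiquitin ligases that remove Frizzled receptors from the cell surface, and R-spondin in the medium is known to inhibit both proteins. Rnf43 (chromosome 11, 87476224 to 87549041, plus strand) was the highest member. In BME it was at 143 FPKM without dox and 108 FPKM with it in line 700, at 91.6 and 64.2 FPKM in line 889, and at 157 FPKM untreated and 146 FPKM with mock dox in line 682. On plastic it was at 70.0 and 50.6 FPKM in line 560, at 42.7 and 42.2 FPKM in line 700 and at 42.2 and 21.5 FPKM in line 889. Rnf43 lay lower with dox in all 5 dox pairs, although by 0.017 in line 700 on plastic, and its BME means were 86.2 ± 31.1 FPKM (SD, n = 2) in dox libraries against 134 ± 29.1 FPKM (SD, n = 4) for the controls. The BME difference of -0.65 on the log2 scale (SE 0.30) had an adjusted p of 0.959 in limma, and it ran from -1.03 without the dox library of line 700 to -0.28 without that of line 889.

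Znrf3 (chromosome 11, 5176327 to 5344850, minus strand) was at 7.90 FPKM without dox and 5.22 FPKM with it in line 700 in BME, at 7.27 and 6.34 FPKM in line 889, and at 11.1 FPKM untreated and 10.6 FPKM with mock dox in line 682. Both dox libraries lay below all 4 controls, as they did for 5.83% of all genes (6.33% lay wholly above), at 5.78 ± 0.796 FPKM (SD, n = 2) against 9.20 ± 1.90 FPKM (SD, n = 4). On plastic it was at 2.77 and 3.46 FPKM in line 560, at 2.79 and 6.11 FPKM in line 700 and at 3.17 and 2.94 FPKM in line 889. The plastic groups overlapped, and the dox library of line 700 stood highest.

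Ephb2 and Ephb3 encode receptors for ephrin-B ligands that keep crypt cells in position along the crypt axis. Ephb2 (chromosome 4, 136203454 to 136391903, minus strand) was at 23.2 FPKM without dox and 20.1 FPKM with it in line 700 in BME, at 32.1 and 27.6 FPKM in line 889, and at 23.1 FPKM untreated and 29.2 FPKM with mock dox in line 682. On plastic it was at 14.6 and 16.8 FPKM in line 560, at 2.81 and 5.23 FPKM in line 700 and at 2.81 and 9.13 FPKM in line 889. Ephb2 was slightly lower with dox in both BME lines and higher with dox in all 3 plastic lines, by 0.19, 0.71 and 1.41 on the log2(FPKM + 1) scale. Ephb3 (chromosome 16, 21204828 to 21223378, plus strand) went the other way on plastic, at 15.3 and 11.9 FPKM in line 560, 28.8 and 25.8 FPKM in line 700 and 17.6 and 9.58 FPKM in line 889. In BME Ephb3 was at 39.3 FPKM without dox and 22.7 FPKM with it in line 700, at 26.0 and 25.4 FPKM in line 889, and at 33.2 FPKM untreated and 29.1 FPKM with mock dox in line 682. Its 2 BME dox libraries lay below all 4 controls, at 24.0 ± 1.90 FPKM (SD, n = 2) against 31.9 ± 5.75 FPKM (SD, n = 4), though line 889 differed by only -0.034 on the log2 scale, and with libraries scaled to an equal FPKM sum its plastic difference in line 560 turned to 0.045.

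Ordered by mean FPKM, a scale per length, the members ran Rnf43, Axin2, Ephb3, Ephb2, Tcf7, Nkd1, Sp5, Znrf3, Notum and Lef1 in BME. The ranges of neighbours over the 6 libraries overlapped throughout except between Notum, never under 4.28 FPKM, and Lef1, never over 4.16 FPKM. On plastic the order began with Rnf43, Axin2 and Ephb3 and ended with Znrf3 and Lef1, and again only the last 2 neighbours did not overlap.

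The group test for dox in BME called no member. It was limma on log2(FPKM + 1) over 12996 genes, with a call at an adjusted p under 0.05 and a difference over 1 log2 unit, and 0.0231% of all genes (3 genes, all with 0 in every control library) were called. Smad4, the induced gene, was not called either, at 1.36 (SE 0.27, limma adjusted p = 0.959), so a gene without a call may still have responded. At an unadjusted p under 0.05, which 4.09% of all genes passed, 1 member stood below its controls, Znrf3, with a difference of -0.58 (SE 0.21, limma adjusted p = 0.959). With the organoid line as a block Znrf3 was at -0.34 (SE 0.14) and no longer passed that level, nor did it with the mock library left out, at -0.51. Across alternatives 0 to 4 members passed that level. With libraries scaled to an equal FPKM sum 3 did (Rnf43, Znrf3 and Ephb3), as did 484 of 13659 genes. Without the untreated library of line 889, 4 did (the same and Notum), as did 975 of 12923 genes. In both settings each of these members had a limma adjusted p of 0.657 or more. An exact permutation test of 2 against 4 libraries gave Znrf3 a two-sided p of 0.133, the smallest that this design allows, and Ephb3 the same. The members' median difference was -0.29 against -0.0057 for all genes.

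Within pairs the BME members leaned one way. In both dox pairs 8 of 10 members were lower than in the untreated partner, where 29.5% of all genes were, and Notum and Tcf7 were higher in both, where 27.2% of all genes were. The 8 stayed lower under both other scalings. In the mock pair 6 of those 8 were lower as well (Axin2, Nkd1, Sp5, Rnf43, Znrf3 and Ephb3). Of all genes, 3829 were lower in both dox pairs, and 2397 of these (18.4% of all genes) were lower in the mock pair too. Rnf43 and Znrf3 in the mock pair turned to 0.075 and 0.10 when libraries were scaled to an equal FPKM sum. The median member differed by -0.44 in line 700, -0.22 in line 889 and -0.08 in the mock pair of line 682. Summed stem cell markers (Lgr5, Ascl2, Smoc2 and Olfm4) moved alongside. They stood at 116 FPKM with dox against 173 FPKM in line 700, at 182 against 237 FPKM in line 889 and at 197 against 208 FPKM with mock dox. The sum was mostly Smoc2, which in the mock pair was higher, at 159 against 118 FPKM. Lgr5 was at 15.7 against 48.1 FPKM and Ascl2 at 22.2 against 42.0 FPKM in that pair. In line 889 Ascl2 was at 36.2 FPKM with dox against 32.6 FPKM. Summed cycling-cell markers were lower with dox in line 700, at 138 against 244 FPKM, and higher in line 889, at 364 against 344 FPKM, and in the mock pair they were at 295 against 343 FPKM. Summed Paneth and goblet cell markers were lower in the treated library of all 3 pairs, mock included. The Paneth sum was at 25.3 against 183 FPKM in line 700, 787 against 940 FPKM in line 889 and 14.8 against 62.5 FPKM with mock dox, although 3 of the 4 Paneth genes had a positive group difference. The goblet sum was at 65.5 against 665 FPKM, 526 against 1570 FPKM and 26.4 against 1222 FPKM in the same order. The enterocyte marker sum (Alpi, Fabp1, Fabp2, Apoa1 and Sis) was higher with dox, at 13.3 against 6.44 FPKM in line 700 and 55.6 against 17.6 FPKM in line 889, and lower with mock dox, at 1.15 against 3.34 FPKM. In line 889 with dox that sum was mostly Sis, at 50.7 FPKM. The epithelial marker sum, mostly Krt8, Krt18 and Krt19, was higher in all 3 treated libraries, at 7511 against 4886 FPKM, 9520 against 4864 FPKM and 4594 against 3892 FPKM. In bulk RNA fewer cells of a type and less RNA per cell cannot be told apart, and the part of these markers in the members' values was not tested. Of the 4 stem cell markers, Olfm4 was at most 1.41 FPKM in BME and 0.977 FPKM on plastic.

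**Figure D3:**
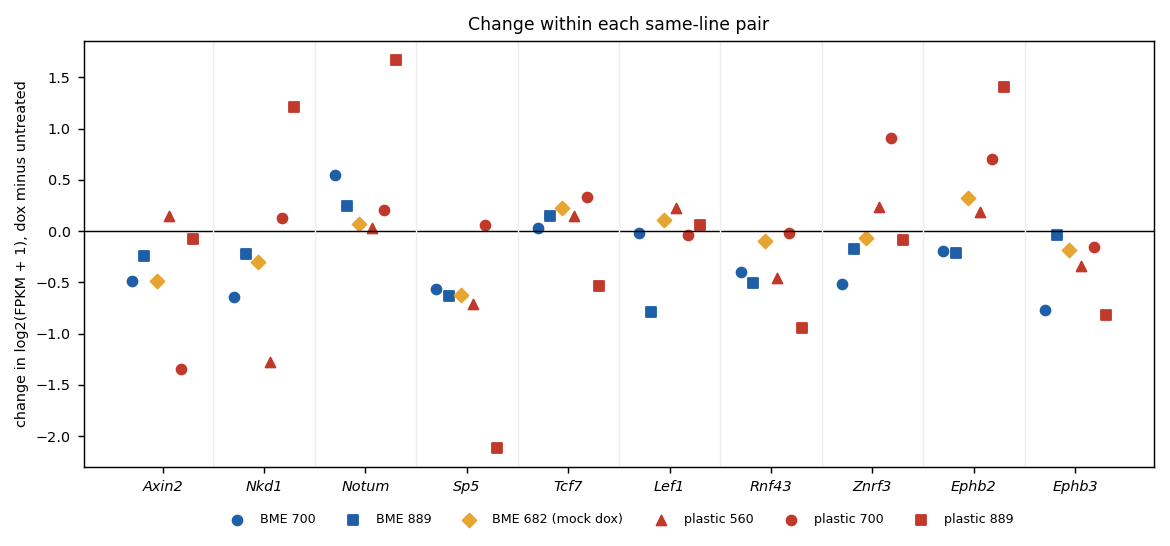
Points give the change in log2(FPKM + 1) from untreated to dox within each organoid line, with BME in blue, the mock dox pair of line 682 in yellow and plastic in red, and a symbol for each line. In BME the dox points of 8 genes lay below 0, whereas on plastic the points scattered from -2.11 (Sp5, line 889) to 1.67 (Notum, line 889).

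On plastic the test called no member either, with 0.0324% of 12333 genes called. No member passed an unadjusted p under 0.05, which 8.29% of all genes did, and no member's dox libraries lay wholly below or above the untreated ones, as 7.26% and 7.87% of all genes did. The members' median difference was 0.0031 against 0.0088 for all genes, and the lowest adjusted p among them was 0.798 in limma. Smad4 was not called on plastic either, at 3.42 (SE 0.55, limma adjusted p = 0.162). With 3 libraries against 3 an exact permutation test cannot go below 0.1. Rnf43 and Ephb3 were lower in all 3 pairs (18.7% of all genes were) and Notum and Ephb2 higher in all 3 (18.6% of all genes were). With the organoid line as a block, which 7.41% of genes passed at an unadjusted p under 0.05 in BME and 13.5% on plastic, limma put Rnf43 and Notum in BME and Ephb2 on plastic under that level. Their limma adjusted p was 0.671, 0.671 and 0.345.

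Line 889 gave the widest plastic difference of the 3 lines for 6 members, Notum, Sp5, Tcf7, Rnf43, Ephb2 and Ephb3. Its dox library held more Nkd1, Notum and Ephb2 and less Sp5, Rnf43 and Ephb3 than its partner. In the same library summed Paneth cell markers were at 81.6 FPKM against 1.97 FPKM untreated, goblet cell markers at 81.4 against 2.12 FPKM and stem cell markers at 9.54 against 1.39 FPKM. In line 700 these sums were lower with dox, at 0.0719 against 1.15 FPKM for Paneth, 1.14 against 7.39 FPKM for goblet and 1.06 against 2.63 FPKM for stem cell markers, while Nkd1, Notum and Ephb2 were higher. In line 560 they were lower with dox too, at 203 against 466 FPKM for Paneth, 523 against 1412 FPKM for goblet and 53.6 against 93.9 FPKM for stem cell markers. Nkd1 was lower there too, whereas Notum, at 18.0 against 17.6 FPKM, and Ephb2, at 16.8 against 14.6 FPKM, were not. Cycling-cell markers were lower with dox in all 3 plastic pairs, at 187 against 214 FPKM in line 560, 92.7 against 140 FPKM in line 700 and 148 against 193 FPKM in line 889. The part of these cell type markers in the members' values was not tested.

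Whether the dox difference itself differed between environments was tested in the 8 libraries of lines 700 and 889, with each environment's own untreated libraries as reference. No member and no gene of 11977 was called (0%), and 3.31% of all genes had an unadjusted p under 0.05. Among members that was Ephb2, whose mean change was -0.20 in BME and 1.06 on plastic, a difference of 1.26 (SE 0.43, limma adjusted p = 1.00). With lines as a block its adjusted p was 0.356 in limma. Nkd1 and Ephb2 were lower with dox in both BME pairs and higher in both plastic pairs, a pattern that 5.27% of all genes showed. For Nkd1 the difference was 1.10, with an SE of 1.96 without and 0.43 with the lines as a block, and a limma adjusted p of 1.00 and 0.453. Rnf43 gave the smallest difference, -0.026 (SE 0.58), with a mean change of -0.46 in BME and -0.48 on plastic.

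Untreated organoids of the same line had lower FPKM of every member on plastic than in BME. The 2 tables were normalized separately, so these levels are set side by side without a test, and 66.4% of all genes in line 700 and 66.3% in line 889 were also lower on plastic. The median member was lower by 1.44 log2 units in line 700 and by 1.20 in line 889, where the medians of all genes were -0.26 and -0.28. With dox all 10 members were again lower on plastic in line 889, and 8 of 10 in line 700, where Znrf3 and Ephb3 were higher by 0.19 and 0.18, and 64.4% and 63.1% of all genes were lower in these libraries. On the log2(FPKM + 1) scale the widest gap was that of Nkd1 in line 889, with 28.4 FPKM in BME and 1.05 FPKM on plastic. Ephb2 was at 32.1 and 2.81 FPKM in that line and at 23.2 and 2.81 FPKM in line 700, and Notum was at 10.7 and 0.668 FPKM in line 889. Sp5 in line 889, at 25.3 and 21.6 FPKM, and Ephb3 in line 700, at 39.3 and 28.8 FPKM, differed least among the well expressed members. Stem cell markers were also lower on plastic in these lines, with summed untreated levels of 2.63 against 173 FPKM in line 700 and 1.39 against 237 FPKM in line 889, while line 560, grown on plastic too, had 93.9 FPKM. The untreated Paneth sum was at 1.15 against 183 FPKM in line 700 and 1.97 against 940 FPKM in line 889, and the goblet sum at 7.39 against 665 FPKM and 2.12 against 1570 FPKM. Untreated cycling-cell markers were lower on plastic as well, at 140 against 244 FPKM in line 700 and 193 against 344 FPKM in line 889, and so were enterocyte markers, at 5.17 against 6.44 FPKM and 1.84 against 17.6 FPKM. The epithelial marker sum was higher on plastic, at 13296 against 4886 FPKM and 13021 against 4864 FPKM, and was mostly Krt8, Krt18 and Krt19. Over all 6 libraries per environment, median Epcam was lower on plastic, at 213 against 323 FPKM. Median Vil1 (90.0 against 119 FPKM) and Cdx2 (35.3 against 73.5 FPKM) were lower too, and median Cdh1 was higher (376 against 351 FPKM). The part of these markers in the members' levels was not tested. Environment and any difference in handling between the 2 sets of cultures cannot be told apart.

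**Figure D4:**
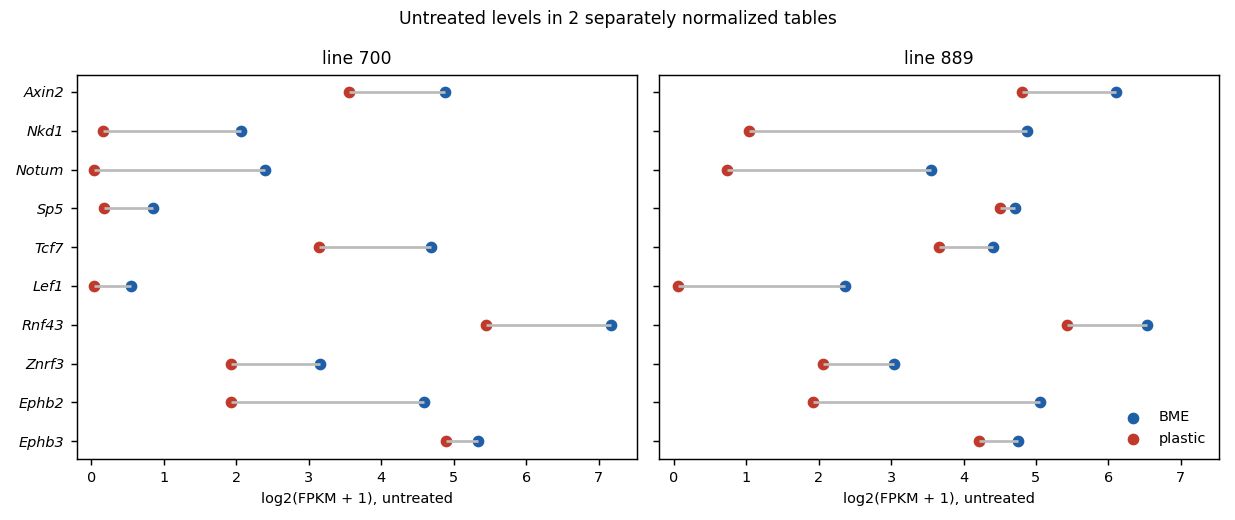
Untreated log2(FPKM + 1) of each gene in BME (blue) and on plastic (red) for line 700 (left) and line 889 (right), the 2 lines present in both separately normalized tables. All 10 genes lay lower on plastic in both lines, by the most on this scale for Nkd1 in line 889 (28.4 against 1.05 FPKM).

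Members followed each other unevenly across the 12 libraries. After centring each gene on its own table's mean of log2(FPKM + 1), Pearson's r with Axin2 was 0.87 for Sp5, 0.85 for Nkd1, 0.80 for Notum, 0.71 for Lef1 and 0.63 for Ephb2. It was 0.37 for Tcf7, 0.02 for Rnf43, -0.38 for Znrf3 and -0.62 for Ephb3. The closest pair was Ephb2 and Notum with r = 0.91, and Ephb2 and Ephb3, of the same receptor family, had r = -0.62. Over 11976 other genes the highest r with Axin2 belonged to Socs2 (0.97), Arhgef10l (0.97), Ceacam1 (0.95), Rbmxl1 (0.95) and Cradd (0.94), and the lowest to Pacs2 (-0.97), Dagla (-0.95) and Traf4 (-0.95). Libraries of 1 line share their source, so these values describe 4 lines more than 12 independent points.

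Of 96 other genes of the WNT pathway, 56 passed the level filter in BME and 57 on plastic, and none was called in any comparison. At an unadjusted p under 0.05, 1 was higher and 3 were lower with dox in BME (Wnt4 higher and Ephb4, Tle4 and Amer1 lower), where 2.62% of all genes were higher and 1.47% lower. On plastic 5 were higher (Ctnnb1, Wnt4, Cd44, Wnt10a and Bcl9) and 0 lower, where 4.56% and 3.73% of all genes were. The median difference of these genes was -0.09 in BME and 0.13 on plastic.

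Ligands came first among the other pathway genes. Wnt4 was at 5.56 and 10.5 FPKM in the BME dox libraries of lines 700 and 889 and at 0.124 and 0.128 FPKM in their partners, a group difference of 2.19 (SE 0.87, limma adjusted p = 0.959). In the mock library of line 682, counted as a control, Wnt4 was at 7.02 FPKM against 0.295 FPKM untreated, so that on this gene the mock library resembled the dox libraries while on Smad4 it resembled the controls. On plastic Wnt4 was at 7.10, 0.540 and 5.65 FPKM with dox in lines 560, 700 and 889 and at 0.279, 0.239 and 0.187 FPKM untreated, a difference of 1.82 (SE 0.62, limma adjusted p = 0.546), and without the dox library of line 700 it was 2.57 (SE 0.25, limma adjusted p = 0.0242). Wnt10a (1.43, SE 0.71) and Wnt7b (0.86, SE 0.53) were the other ligands with large BME differences, with limma adjusted p of 0.959 for each. Within line 700 Wnt10a was at 18.8 FPKM with dox against 17.4 FPKM and Wnt7b at 61.3 against 61.9 FPKM. In line 889 Wnt10a was at 13.3 against 5.44 FPKM and Wnt7b at 37.0 against 19.9 FPKM. Line 682, present only among the controls, had at most 3.60 FPKM of Wnt10a and 18.8 FPKM of Wnt7b.

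Among receptors and targets the BME differences with the most negative values were Lgr5, the R-spondin receptor that marks crypt stem cells (-1.0, SE 0.62), the Frizzled receptor gene Fzd2 (-0.80, SE 0.41), Rgmb (-0.74, SE 0.59) and the ion transporter gene Slc12a2 (-0.71, SE 0.41). In the mock library, counted as a control, Lgr5 was at 15.7 FPKM, within the 12.3 to 29.2 FPKM of the dox libraries and below the 43.0 to 71.1 FPKM of the untreated ones. Rgmb was lower with dox in line 700, at 15.9 against 35.4 FPKM, but higher in line 889, at 13.2 against 8.51 FPKM. In the same lines Fzd2 was at 1.49 against 2.45 FPKM and 2.86 against 3.27 FPKM. Slc12a2 was at 196 against 247 FPKM and 113 against 147 FPKM. Line 682, present only among the controls, was higher, with at least 6.20 FPKM of Fzd2 and 255 FPKM of Slc12a2. Tle2, of the Groucho family of co-repressors, was among the highest differences in BME (0.79, SE 0.40). On plastic Ctnnb1, the β-catenin gene itself, was at 859, 574 and 1205 FPKM with dox and at 149, 286 and 278 FPKM untreated in lines 560, 700 and 889, a difference of 1.88 (SE 0.38) with an adjusted p of 0.282 in limma. All 3 dox libraries lay above all 3 untreated ones. In BME Ctnnb1 was at 355 and 717 FPKM with dox and at 402 and 304 FPKM untreated in lines 700 and 889, with no shared direction. Tle3 (1.72, SE 0.93) and the adhesion receptor Cd44 (1.37, SE 0.42) followed on plastic, and Ephb6 (-0.76, SE 0.48), Wnt6 (-0.70, SE 0.64), the cyclin gene Ccnd1 (-0.70, SE 0.57) and Tle4 (-0.50, SE 0.59) were lowest. In BME Cd44 was lower in each treated library, at 32.7 against 71.1 FPKM in line 700 and 74.8 against 109 FPKM in line 889. With mock dox it was at 60.7 against 90.4 FPKM. Secreted inhibitors were scarce, since 0 of 12 passed the level filter in BME and 1 on plastic, and Rspo1 and Rspo3 were listed at 0 in every library.

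**Figure D5:**
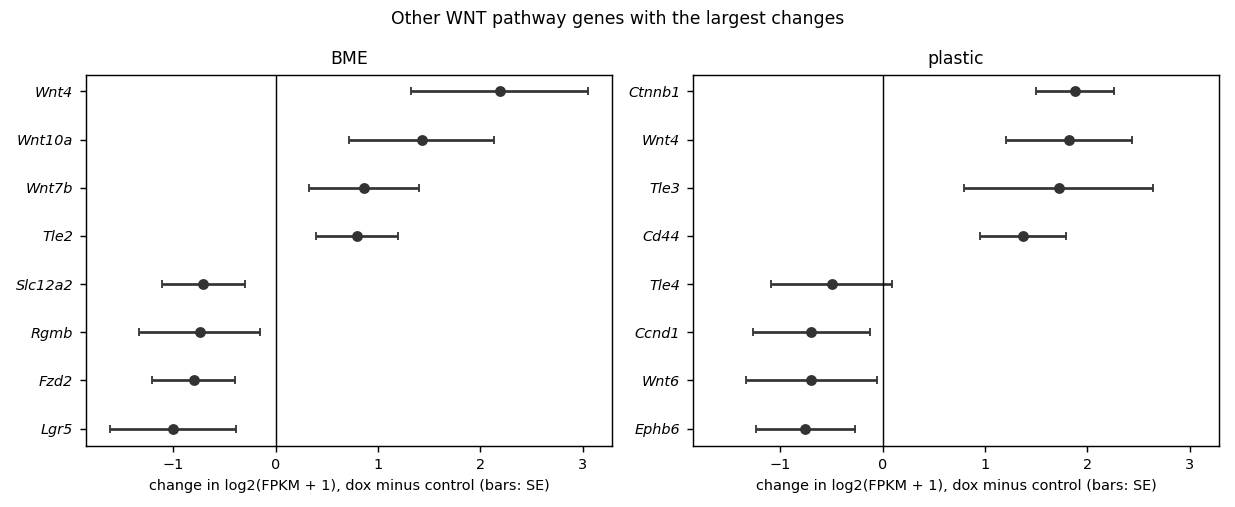
Points give the limma difference in log2(FPKM + 1), dox minus control, with SE bars, for the 4 most positive and 4 most negative other WNT pathway genes in BME (left) and on plastic (right). Wnt4 stood at 2.19 in BME and 1.82 on plastic, Ctnnb1 at 1.88 on plastic, and no gene shown passed the adjusted threshold.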

How the data were processed

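Bulk RNA-Seq was made from 12 organoid libraries. The authors deposited FPKM values per gene in 2 tables, 1 for BME and 1 for plastic, and their notes name kallisto, DESeq, DESeq2 and the mm9 build, with versions not given in the sources used here. Their comparison tables, which hold mean normalized counts, fold changes, Wald statistics and p-values, were not used.

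The members and gene lists were chosen with earlier results of these data known. Named genes were the 10 members, Smad4, the 4 most positive and 4 most negative differences per environment among the other WNT lists (ligands, receptors, secreted inhibitors, cytoplasmic, nuclear, other targets, EPHB family), and the 5 highest and 3 lowest correlations with Axin2. Values were tested as log2(FPKM + 1) with limma 3.58.1 in R 4.3.3 (trend, two-sided, Benjamini-Hochberg) over genes whose mean reached 0.5 FPKM, because FPKM values are not counts. A difference on this scale understates the change of low genes. Exact permutation tests used scipy 1.17.1 in Python 3.11.15. The fits were also run on simulated data without line effects, which cannot show how they behave with the spread between lines seen here. Replicate numbers are organoid lines, 1 library each per condition. In BME the 4 controls came from 3 lines, since line 682 gave its untreated and its mock library. Main fits and permutation tests left lines unpaired, so their p-values treat libraries of the same line as independent. Same-line libraries deviated together (correlations of 0.74 in BME and 0.46, 0.61 and 0.25 on plastic), and the blocked fit was an alternative, with other pseudocounts, filters, scalings, subsets of lines, placements of the mock library and single libraries left out. Between 84.8% and 88.9% of low values were whole multiples of 1 read within a tolerance of 0.03, with the gene's lowest value taken as 1 to 3 reads. That choice lets some values pass by chance. Gene positions are from GENCODE on NCBIM37 and promoters from RefSeq on GRCm38.p6.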

Additional observations from a re-analysis of the deposited data

Results flagged for a closer look

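Over the 4 BME control libraries, 1 value of Lef1 and 1 of Rnf43 stood far from the others, among 10 genes examined. Chance marks about 1 in 20 where values are independent. These were not all independent, since line 682 gave both its untreated and its mock library. For Lef1 the untreated library of line 889, at 4.16 FPKM, lay above the rest, and its gap to the nearest library took 0.904 of the group's range of log2(FPKM + 1). For Rnf43 the same library, at 91.6 FPKM, lay below the rest, with a gap of 0.836 of the range. Its dox partner stood apart in the same direction for both genes, with Lef1 at 1.99 FPKM and Rnf43 at 64.2 FPKM.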

How the results depend on the processing

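No member was called under any alternative for any comparison, and the lowest adjusted p of a member was 0.511 in BME, 0.159 on plastic and 0.356 for the difference between environments, all in limma. The 3 genes called in BME became 0 with the replicate block, with a mean FPKM of at least 1, in lines 700 and 889 alone (with or without the block, the former chosen after seeing the data), and with the mock library left out or counted with dox, and 1 with a pseudocount of 0.1. The 4 genes called on plastic became 7 with the replicate block, 10 with a pseudocount of 0.1, 11 with libraries scaled to an equal FPKM sum, and 0 without the level filter or in lines 700 and 889 alone, with or without the block. Leaving out 1 library gave 0 to 37 calls in BME (37 without the dox library of line 700) and 0 to 55 on plastic (55 without the dox library of line 700), and 0 to 1 other WNT genes on plastic. The causes were not tested. With libraries scaled to an equal FPKM sum the all-gene median of the difference between environments moved from 0.0092 to -0.11.

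Lef1 in BME turned from 0.13 to -0.40 with the replicate block and in lines 700 and 889 alone, with or without the block, to -0.032 without the mock library and to -0.23 with that library counted as dox. For the difference between environments, Sp5 turned to 0.045 with a pseudocount of 0.1, and over all lines without a block to 0.041 and, without the mock library, 0.022. Rnf43 turned to 0.18 and 0.13 in those last fits, and Lef1 to -0.043 over all lines. Leaving out 1 library turned these BME differences, with ranges of -0.97 to 0.49 for Axin2, -1.95 to 1.28 for Nkd1, -2.86 to 0.94 for Sp5, -0.40 to 0.65 for Lef1 and -0.39 to 0.051 for Ephb2. On plastic the ranges were -1.19 to 0.59 for Axin2, -0.96 to 1.55 for Nkd1, -0.34 to 1.91 for Notum, -2.42 to 0.087 for Sp5, -0.26 to 0.20 for Tcf7 and -0.16 to 0.38 for Lef1. Between environments they were -1.60 to 0.91 for Axin2, -0.52 to 2.72 for Nkd1, -0.54 to 1.62 for Notum, -2.60 to 1.73 for Sp5, -0.45 to 0.068 for Tcf7, -0.50 to 1.32 for Lef1, -0.50 to 0.45 for Rnf43 and -0.75 to 0.58 for Ephb3. Without the dox library of line 700 the BME differences of Axin2, Nkd1, Sp5 and Ephb2 turned positive, and without the dox library of line 700 on plastic so did Axin2, Sp5 and Tcf7 there. Where an arm was left with 1 library, that library was assumed to vary like the others. Lef1 failed the level filter on plastic in some of these fits. Depth is unknown beyond its ratio between libraries, which limits what can be said of genes near 0 such as Lef1 and, in line 700 on plastic, Nkd1, Notum and Sp5.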

Other observations

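None of the 4 goblet cell markers (Muc2, Tff3, Clca1 and Fcgbp) or the 4 Paneth cell markers (Lyz1, Defa24, Mmp7 and Itln1) passed an unadjusted p under 0.05 in BME in limma, where the mock library stood among the controls.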
